A study of Drosophila melanogaster with 2 samples.

Results

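The embryonic patterning genes examined here are 36 of the 13945 protein-coding genes annotated on the 6 main chromosome arms of Drosophila melanogaster. The rule that lists them goes by function and uses no measured value, although the list was drawn up with earlier results of these data known: 8 Hox genes (lab, pb, Dfd, Scr, Antp, Ubx, abd-A and Abd-B), 7 gap genes counted together with the maternal gene bcd (bcd, hb, Kr, kni, gt, tll and hkb), 8 pair-rule genes (eve, ftz, h, run, odd, prd, slp1 and slp2), 5 segment polarity genes (en, wg, hh, ptc and gsb) and 8 dorsoventral genes (dl, twi, sna, sog, dpp, zen, rho and brk). All 36 were found in the annotation, h under the name hry. Chromatin immunoprecipitation with sequencing (ChIP-seq) mapped CkIIalpha-i1, which its name ties to the casein kinase II alpha subunit, in whole embryos of 0 to 18 hours. There was 1 group, the fly strain CkIIalpha-i1-GFP, with 2 biological replicates. These flies carry a transgene for the protein fused to eGFP, an enhanced green fluorescent protein, which an anti-GFP antibody precipitated, and what drives its expression is not given in the labels. Neither a second condition nor a control library was analysed, so all values describe this group.

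Patterning genes give each cell of the early fly embryo its position. Maternal and gap genes divide the length of the embryo into broad regions, pair-rule and segment polarity genes turn these into repeated segments, and Hox genes give each segment its identity. Dorsoventral genes do the same around the circumference through graded Dorsal protein and through signalling by Dpp, a ligand of the BMP family. Most are read from long stretches of regulatory DNA that lie away from the transcription start site, and each is active in a limited set of cells at a limited time. Whole embryos of 0 to 18 hours mix all of these cells and times, so a site bound in few cells and a site bound weakly in many cannot be told apart in these data.

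A gene was scored by the peaks whose summit lay in its body or within 5 kb of it. A summit within 500 bp of one of the gene's own start sites was a promoter summit, one within 500 bp of another gene's start was set apart, and the rest were called distal. The authors deposited 4 thresholded peak lists, all limited to a global irreproducible discovery rate (IDR, low where a peak ranks alike in the 2 lists compared) of 0.01. On the main arms 653 peaks were in the conservative list, the one that compares the replicates, and 923 in the pooled list, and the lists of replicates 1 and 2 alone held 424 and 531. The conservative list was cut from 137068 ranked candidates on these arms, called candidates below. The signal value is the authors' score for a peak, on a scale that is not stated, and each candidate also carries the value of the overlapping peak in replicate 1 and in replicate 2. The lists do not give read depth, and intervals on counts of genes cover counting error only, and neighbouring genes that share a peak are not independent.

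No promoter of the 36 patterning genes held a thresholded peak in any of the 4 lists, and the few peaks at these genes were distal, mostly in introns. In the conservative list 1 of 36 members, sog, had a peak in the gene or within 5 kb, which is 2.78% (95% exact binomial interval 0.0703 to 14.5) beside 11.0% of all protein-coding genes. In the pooled list 5 of 36 had one, 13.9% (4.67 to 29.5) beside 14.4%. Replicate 1 alone gave 1 member (2.78%) beside 7.60% of all genes, and replicate 2 alone gave 3 members, 8.33% (1.75 to 22.5), beside 8.83%. Each share of all genes lay inside the members' interval. Promoter peaks were at 0 of 36 members in every list. The exact 95% interval reaches 9.74%, and the rule that a count of 0 allows 3 counts gives 8.33%. Among all protein-coding genes a promoter peak was held by 3.17% in the conservative list, 4.04% in the pooled list, 2.12% in replicate 1 and 2.62% in replicate 2, so a count of 0 among 36 is not distinguishable from these shares at this number of genes.

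**Figure D1:**
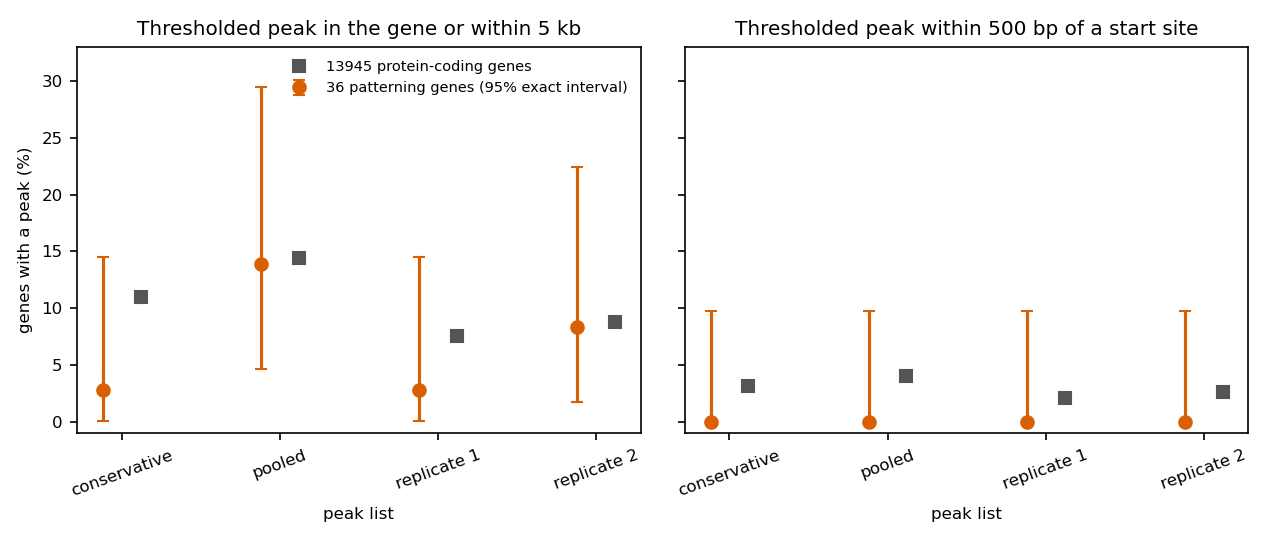
Share of genes (%) with a thresholded peak in the gene or within 5 kb (left) and within 500 bp of a start site (right), by peak list. Circles are the 36 patterning genes with their exact 95% interval for counting error, and squares are the 13945 protein-coding genes. The squares lie inside the members' intervals in all 4 lists, and the members' promoter share is 0 throughout.

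Gene length moved with these counts and is given beside them. Of the 36 members, 18 were shorter than 5 kb, 9 were 5 to 20 kb and 9 were 20 kb or longer. In the conservative list 0 of the 18 short members had a peak, beside 9.15% of protein-coding genes of that length, and 1 had a pooled peak (5.56%, beside 11.8%). Of the 9 members of 5 to 20 kb, 0 had a conservative peak, beside 15.1%, and 1 had a pooled peak (11.1%, beside 20.8%). Among the 9 longest, 1 had a conservative peak (11.1%, beside 19.8%) and 3 had a pooled peak (33.3%, beside 26.0%). Per length of DNA, the members' joined windows of 0.930 Mb held 1.08 conservative peaks per Mb, against 5.59 over the joined windows of all protein-coding genes. In the pooled list the values were 6.45 and 7.85 per Mb, in replicate 1 alone 1.08 and 3.65, and in replicate 2 alone 4.30 and 4.46. The members' values rest on 1 peak in the conservative list, 6 in the pooled list, 1 in replicate 1 and 4 in replicate 2.

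In all, 6 distinct member sites passed the threshold in at least 1 list, and all 6 were distal. They lay at 5 genes. Dorsoventral genes had 4 of them (sog with 2, dpp and rho), the Hox gene Antp had 1, the pair-rule gene slp2 had 1, and the gap and segment polarity genes had 0. The joined windows spanned 229418 bp at dorsoventral genes, 417524 bp at Hox genes and 102422 bp at pair-rule genes. Those of the gap and segment polarity genes spanned 93874 and 95305 bp. With 7.85 pooled peaks per Mb over all protein-coding genes, counts this small do not separate the classes. All 6 were in the pooled list. For comparison, 50.6% of pooled peaks and 54.7% of conservative peaks on the main arms had their summit within 500 bp of an annotated start. This comparison is not like for like, and 6 sites are few. Promoter candidates were 6.98% of the candidates in member windows, against 14.0% in those of all protein-coding genes. Every member site was 284 bp long, the maximum width, which 91.9% of the pooled and 88.8% of the conservative peaks also had. Their sequences are shown because they are the DNA that the thresholded signal at these genes rests on, beginning with the dorsoventral genes. All come from the RefSeq copy of the Release 6 reference (dm6 coordinates), plus strand, and capitals mark the words searched for: CAGGTAG (Zelda), GAGAGAG (the Trl protein), TATCGATA (DNA replication-related element), TAATCC (Bicoid core), CAGGTG (an E-box), GGTCACAC (core promoter motif 1), and the 7-letter words ACAGTGG (no factor named here) and CAGTGTA (likewise), each on both strands and over all 284 bp, none of which contains another.

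The gene sog encodes a secreted inhibitor of Dpp and is active in the lateral neurogenic ectoderm. Its stronger site, chrX:15622949-15623232, lay in an intron 3449 bp downstream of the nearest of its 2 annotated starts. The signal value was 68.2, with 37.3 in replicate 1 and 35.1 in replicate 2, both at percentile 99.5 of all candidates. It was the only member site that passed in all 4 lists, with a global IDR of 0.00496 between the replicates, 0.00751 in replicate 1 alone and 0.00618 in replicate 2 alone. Within the lists it was a weak entry, ranked 550 of 653 by signal in the conservative list, 405 of 424 in replicate 1 and 512 of 531 in replicate 2. The median signal of conservative peaks was 92.0, with quartiles of 73.3 and 128.3, so this site lay under their lower quartile. The other sog site, chrX:15619357-15619640, lay further along the transcript in an intron, 7041 bp downstream of the start. There the replicates differed, with 16.1 in replicate 1 and 45.4 in replicate 2 (percentiles 81.9 and 99.7), and it passed in the pooled list and in replicate 2 only. Neither sequence holds any of the 8 words.
sog site at 3449 bp: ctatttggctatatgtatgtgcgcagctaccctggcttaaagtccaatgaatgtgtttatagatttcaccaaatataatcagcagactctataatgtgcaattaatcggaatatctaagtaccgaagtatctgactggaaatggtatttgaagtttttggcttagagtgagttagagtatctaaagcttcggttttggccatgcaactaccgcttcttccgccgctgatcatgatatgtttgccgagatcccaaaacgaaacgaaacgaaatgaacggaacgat
sog site at 7041 bp: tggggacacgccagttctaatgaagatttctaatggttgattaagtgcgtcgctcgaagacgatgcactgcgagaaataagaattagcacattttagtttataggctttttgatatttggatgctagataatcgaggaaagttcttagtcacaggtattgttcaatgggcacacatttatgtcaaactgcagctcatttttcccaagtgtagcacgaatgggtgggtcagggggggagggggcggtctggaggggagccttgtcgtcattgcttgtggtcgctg

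At dpp, the BMP ligand itself, the site chr2L:2433474-2433757 lay in an intron 5244 bp downstream of the nearest of 4 starts. Its signal value of 74.6 was the highest of all 1117 candidates at patterning genes. That height came from 1 replicate: the value was 58.9 in replicate 2 and 17.9 in replicate 1 (percentiles 99.8 and 87.3). It passed in replicate 2 (global IDR 0.000608) and in the pooled list (0.00298), while between the replicates the IDR was 0.0927. A second dpp candidate, at −1740 bp (a minus sign is upstream), had a lower signal of 50.6 but more even values, 24.7 in replicate 1 and 28.4 in replicate 2, and a between-replicate IDR of 0.0228. The sequence of the intronic site holds none of the 8 words.
dpp site at 5244 bp: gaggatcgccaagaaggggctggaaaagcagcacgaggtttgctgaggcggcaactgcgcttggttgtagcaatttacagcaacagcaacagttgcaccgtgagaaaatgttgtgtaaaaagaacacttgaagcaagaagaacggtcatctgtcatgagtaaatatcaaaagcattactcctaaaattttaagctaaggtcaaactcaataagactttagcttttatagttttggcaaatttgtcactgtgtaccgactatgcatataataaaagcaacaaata

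The gene rho encodes the rhomboid protease that releases ligands of the EGF receptor. Its site, chr3L:1464455-1464738, lay 786 bp downstream of its start in an intron, inside an intron of Ptp61F on the other strand as well. The signal was 66.8, with 22.8 in replicate 1 and 41.95 in replicate 2, and it passed in replicate 2 and in the pooled list. Between the replicates the global IDR was 0.0225. In both replicates' own ranked lists it was the strongest candidate of the gene. The sequence holds CAGTGTA once, starting 115 bp to the right of the summit (right is the higher coordinate), outside the 100 bp used for shares of peaks.
rho site at 786 bp: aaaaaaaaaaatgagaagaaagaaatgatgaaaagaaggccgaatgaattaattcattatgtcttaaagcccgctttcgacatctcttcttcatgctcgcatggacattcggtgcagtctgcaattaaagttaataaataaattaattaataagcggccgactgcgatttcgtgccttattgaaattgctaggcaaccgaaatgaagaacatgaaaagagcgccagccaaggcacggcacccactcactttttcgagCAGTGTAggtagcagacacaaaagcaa

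Of the segmentation genes, slp2, which encodes a forkhead transcription factor and lies beside its paralog slp1, was the only one with a thresholded site. The site chr2L:3832403-3832686 lay between the paralogs, at −4295 bp from the start of slp2. Its signal was 66.3, with 25.4 in replicate 1 and 36.7 in replicate 2. It passed in the pooled list (global IDR 0.00457), and between the replicates the IDR was 0.0138, just outside the threshold. The sequence holds CAGTGTA 2 times, once on each strand, and the core promoter motif GGTCACAC 2 times, starting at −49 and −14 bp from the summit (a minus sign is the lower coordinate), although no start site is annotated there. Of all 653 conservative peaks, 1.53% held GGTCACAC within 100 bp of the summit and 10.4% held CAGTGTA, a window that takes in both copies of the former here and 1 of the latter, which start at 41 and −117 bp.
slp2 site at -4295 bp: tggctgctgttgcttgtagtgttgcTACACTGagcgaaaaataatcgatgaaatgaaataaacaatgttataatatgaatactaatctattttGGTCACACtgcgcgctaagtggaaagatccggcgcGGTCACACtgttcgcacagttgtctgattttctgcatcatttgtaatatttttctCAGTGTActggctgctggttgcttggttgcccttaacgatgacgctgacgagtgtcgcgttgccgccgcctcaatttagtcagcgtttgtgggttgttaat

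Antp, the Hox gene of the thorax, had its thresholded site at chr3R:6918232-6918515, in an intron 14466 bp downstream of the nearest of 3 starts and also in an intron of CG46458. The replicates were even, 29.2 and 27.4, at percentile 98.8 and 98.7, and the signal was 52.3. It passed in the pooled list alone, at an IDR of 0.00992, close to the limit. Between the replicates the IDR was 0.0134. Around its summit (100 bp to each side) the GC content was 53.7%, the highest of the 6 sites, which otherwise had 37.3% to 44.3%, and all conservative peaks had a median of 35.8%. The sequence holds ACAGTGG 2 times, both as its reverse complement CCACTGT, starting at −68 and −23 bp from the summit, and TAATCC once, at −103 bp. ACAGTGG, known beforehand as a frequent word of these peaks, stood within 100 bp of the summit in 16.2% of conservative peaks and in 2.87% of all candidates.
Antp site at 14466 bp: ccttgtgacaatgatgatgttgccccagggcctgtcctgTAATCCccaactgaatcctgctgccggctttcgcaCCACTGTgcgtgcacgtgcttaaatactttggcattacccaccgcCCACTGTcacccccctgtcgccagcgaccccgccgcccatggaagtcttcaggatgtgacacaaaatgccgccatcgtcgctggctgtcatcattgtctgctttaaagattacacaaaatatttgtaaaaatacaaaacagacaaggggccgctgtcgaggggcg

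With the threshold relaxed to a global IDR of 0.05 in the list that compares the replicates, 8 of 36 members (22.2%, 95% exact interval 10.1 to 39.2) had a candidate in the gene or within 5 kb, beside 21.9% of all protein-coding genes. These shares were close, but they were not matched for gene length, and longer genes more often held a thresholded peak. These 8 were Antp, Ubx and abd-A of the Hox genes, slp2, ptc, and the dorsoventral genes dpp, rho and sog, with 11 candidates between them and none at a promoter. Ubx, the Hox gene of the posterior thorax and anterior abdomen, had 3. One lay in an intron 50644 bp from the start (signal 54.3, with 27.7 in replicate 1 and 25.3 in replicate 2), and a neighbour there drew on the same replicate peaks. A further Ubx candidate lay in the coding exon, 1213 bp from the start, with 41.8 (22.9 and 25.02). Antp had a second one with 56.6 (28.5 and 26.9), in an intron at −6365 bp from its nearest start. At abd-A, which specifies the abdomen, a candidate beyond the 3' end had 52.3 (24.5 and 27.8) and held ACAGTGG once. The candidate of ptc, the receptor of Hedgehog, lay at −3377 bp and had 40.8 (23.1 and 24.3).

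**Figure D2:**
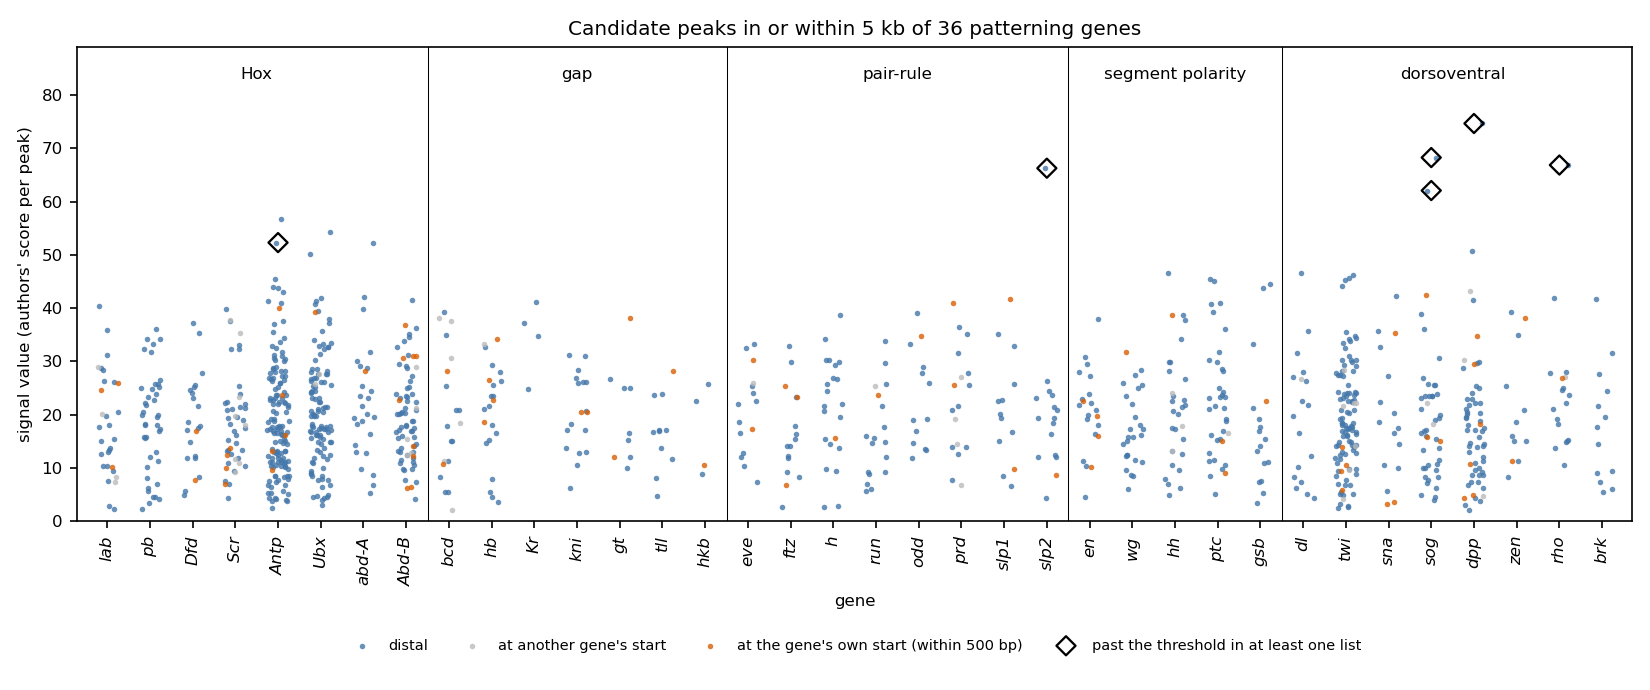
Signal value (authors' score per peak) of every candidate in or within 5 kb of each patterning gene, by class. Orange points have their summit within 500 bp of the gene's own start, grey points at another gene's start, blue points elsewhere, and diamonds passed the threshold in at least 1 list. The diamonds are the 6 distal sites, between 52.3 and 74.6, and no orange point exceeds 42.4.

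**Figure D3:**
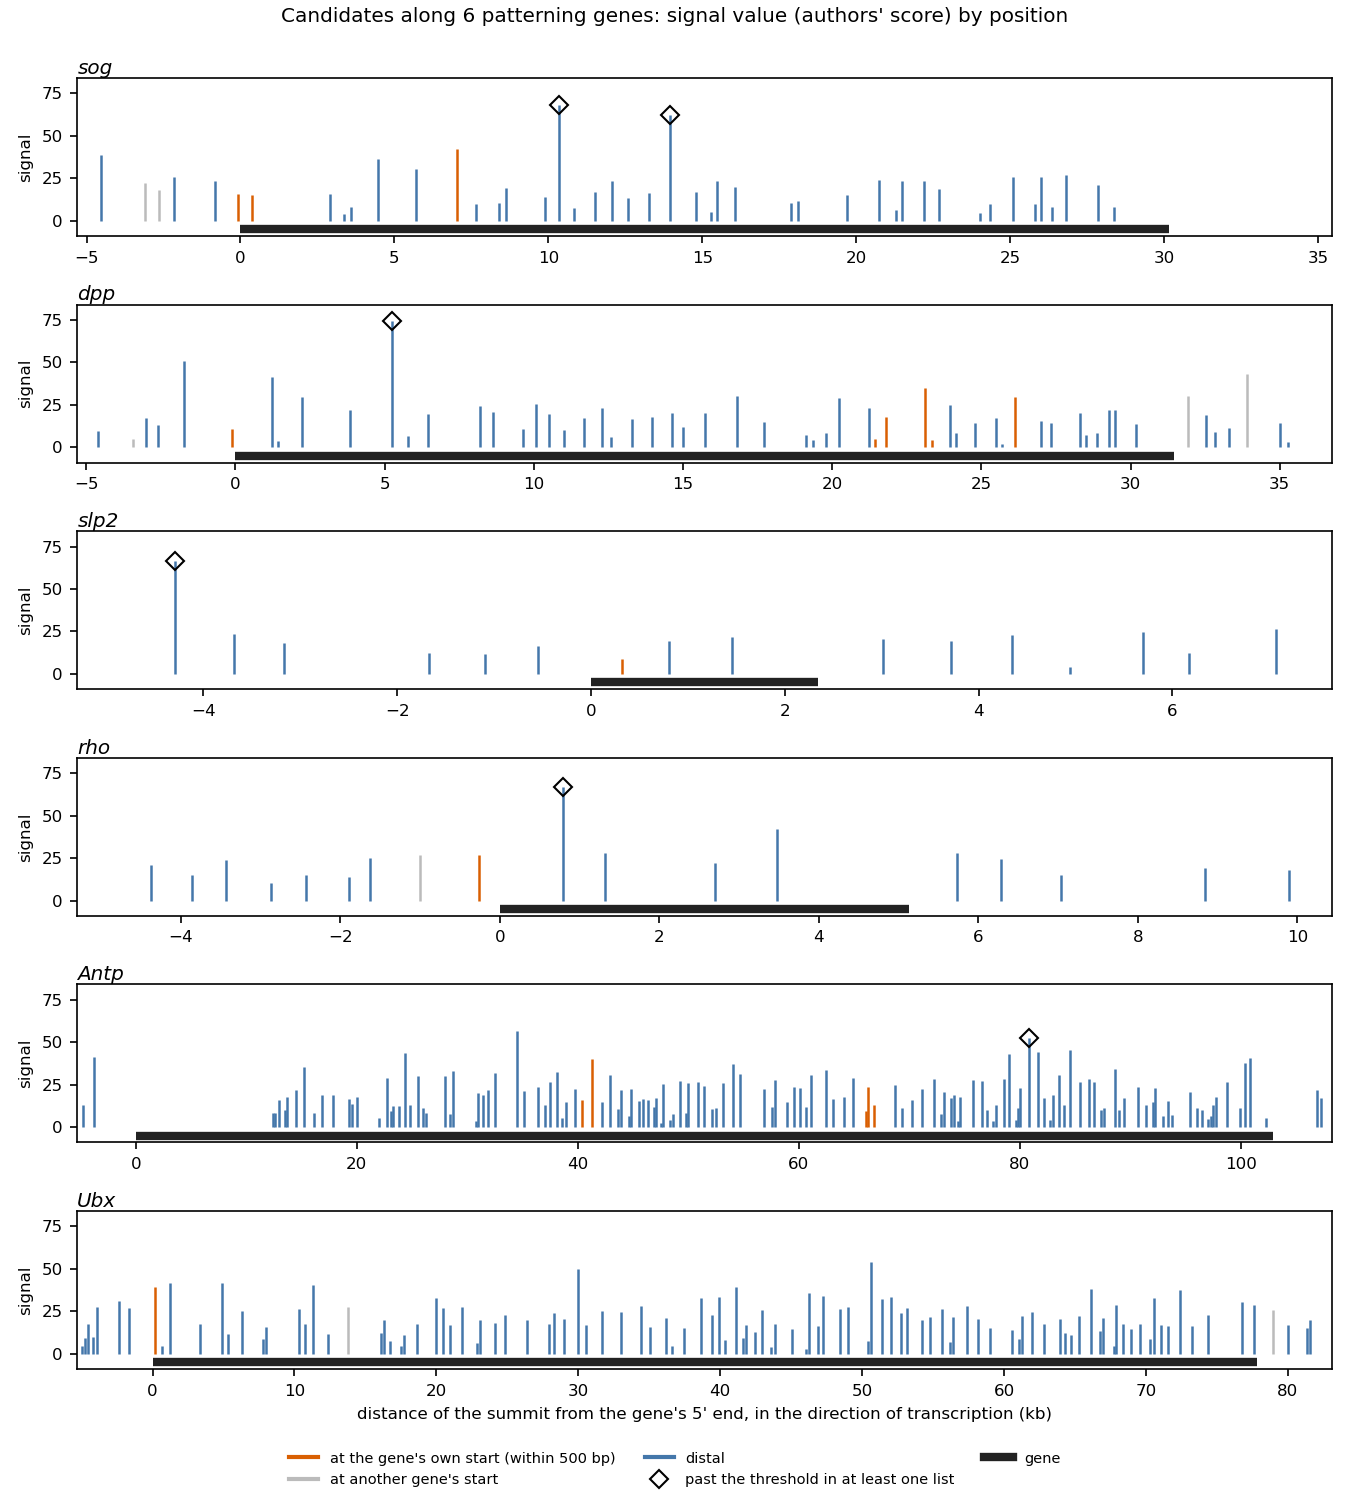
Candidates along 6 patterning genes, with distance of the summit from the gene's 5' end in kb on the x axis, in the direction of transcription, and signal value (authors' score) on the y axis. The black bar is the gene, and colours and diamonds are as in the plot of all candidates. The thresholded sites of sog, dpp, rho and Antp stand inside the gene and that of slp2 upstream, and Ubx has none.

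Below the threshold the members' DNA was covered with candidates much as other genes were. The joined windows held 1117 distinct candidates, 12.01 per 10 kb against 10.7 for all protein-coding genes, and the median gene had 12.5 per 10 kb among members and 12.4 among all. The range over members was 2.71 to 16.3. By class the joined windows held 11.8 per 10 kb at Hox genes, 9.37 at gap genes, 12.7 at pair-rule genes, 13.6 at segment polarity genes and 12.6 at dorsoventral genes. Among the gap genes, the lowest class, Kr, which acts in the centre of the embryo, had 4 candidates in all (2.71 per 10 kb, percentile 7.28 of all genes) and a stretch of 8096 bp with none. The terminal gap gene hkb also had 4 (3.44 per 10 kb, percentile 8.28). At the other end h, a pair-rule repressor, had 22, or 16.3 per 10 kb (percentile 94.1). The longest stretches without a candidate were 16169 bp at Antp, 12041 bp at dl and 10678 bp at abd-A.

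Promoter candidates were found at 32 of the 36 members, 78 in all, and their signal was ordinary. Their median was 18.3 (interquartile range 10.6 to 28.1), against 19.5 (12.2 to 27.7) over the 16672 promoter candidates of all protein-coding genes. The median percentile of the members' candidates among those was 45.9 by the combined signal, 47.8 by replicate 1 and 53.6 by replicate 2. Taking the strongest per gene, the 32 members had a median of 28.1 (8.62 to 42.4) and all 10521 genes with one had 24.8, with 21 members above the median gene. A maximum per gene can rise with the number of candidates, which was not matched. The distinct promoter candidates were 78 at 32 members and 16672 at 10521 genes. A candidate shared by neighbouring genes counts once in these totals, so they do not give candidates per gene. The 4 members with none were the Hox gene pb, Kr, dl, whose protein sets up the dorsoventral axis, and brk, a repressor of Dpp targets. That is 11.1% of members, against 24.6% of protein-coding genes. Their nearest candidates lay 2446, 925, 3129 and 540 bp from a start.

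Among the Hox genes the highest promoter values were 39.9 at Antp, 39.3 at Ubx and 36.7 at Abd-B, the gene of the posterior abdomen. The replicates gave 32.5 and 8.497 at Antp, 21.4 and 15.99 at Ubx, and 22.1 and 13.7 at Abd-B. Replicate 1 was thus higher at all 3, most of all at Antp. Of the gap genes, gt had 38.0 (19.1 and 17.7), hb, an activator of the anterior gap pattern, had 34.2 (17.3 and 14.9), and bcd, the anterior maternal determinant, had 28.1 (19.5 and 6.59).

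In the pair-rule class slp1 had 41.7 at its promoter, with 25.3 in replicate 1 and 11.7 in replicate 2, while its paralog slp2 had 8.62, the lowest of all members with a promoter candidate. The paired-domain gene prd had 40.9, with even values of 20.5 and 20.9, and odd had 34.7 (23.1 and 11.99). Of the segment polarity genes, the ligand gene hh had 38.6 (19.95 and 17.4), the Wnt gene wg had 31.7 (16.4 and 11.1), and en, which marks the posterior compartment, had 22.6 (17.6 and 5.29). The highest promoter value of all members was at sog, 42.4, with 20.5 in replicate 1 and 23.4 in replicate 2 and a between-replicate IDR of 0.0834. Next among the dorsoventral genes came zen, a dorsal homeobox gene, with 38.2 (13.1 and 26.5), and sna, the ventral repressor of neural genes, with 35.4 (22.9 and 19.5). The other 16 members with a promoter candidate had 10.6, at hkb, to 34.7, at dpp.

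Distal candidates were found at all 36 members, 991 in all, with a median signal of 18.4 (12.3 to 25.5) against 17.8 (11.3 to 24.9) over the 100271 distal candidates of all genes. The median percentile was 52.5, with 52.0 by replicate 1 and 52.7 by replicate 2. The strongest distal candidate per gene had a median of 39.5 among members (23.9 to 74.6) and 36.5 among all genes, and 24 members lay above the median gene. A maximum per gene can rise with the number of candidates, and gene length was not matched here. Of the members 9 of 36 were 20 kb or longer, beside 1013 of 13945 protein-coding genes. Beside the sites already given, the highest were 41.2 at Kr, 39.2 at bcd (the same candidate as at its neighbour zen) and 32.6 at hb among the gap genes. Kr is thus a gene with few candidates of which 1 is fairly high, 28.9 in replicate 1 and 14.01 in replicate 2. Pair-rule values after slp2 were 39.1 at odd (14.9 and 23.7) and 38.7 at h (18.2 and 20.4). Segment polarity values were 46.6 at hh (34.2 and 13.9), 45.4 at ptc (20.3 and 21.97) and 44.5 at gsb (28.8 and 18.8), a paired-domain gene. The other 21 members had 23.9, at the terminal gap gene tll, to 46.5, at dl.

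The replicates seldom placed their strongest signal of a patterning gene at the same site. In each replicate's own ranked list the strongest candidate in the gene or within 5 kb was taken, and the pair overlapped at 3 of 36 members, brk, rho and slp2. That is 8.33% (95% exact interval 1.75 to 22.5), beside 21.1% of the 13260 protein-coding genes with candidates in both lists, so the members' upper bound lay just above the background share. By gene length the background share was 20.8% under 5 kb, 22.7% from 5 to 20 kb and 20.5% above. At sog the replicates chose different sites, since replicate 1 was highest at the intronic site 3449 bp from the start and replicate 2 at the one 7041 bp from it. At dpp, replicate 2 was highest at its intronic site with 58.9, and the strongest candidate of replicate 1 was 26.9, beyond the 3' end of the gene. The 9 members of 20 kb or longer, which include Antp, Ubx and Abd-B, had no overlapping pair. Across the 1117 member candidates the replicates' signal values gave r = 0.212 (Pearson) and rho = 0.167 (Spearman), and across all candidates r = 0.465 and rho = 0.192. These are descriptions across candidates, which share libraries, and 10.7% of the members' candidates shared both replicate peaks with another (11.3% of all).

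**Figure D4:**
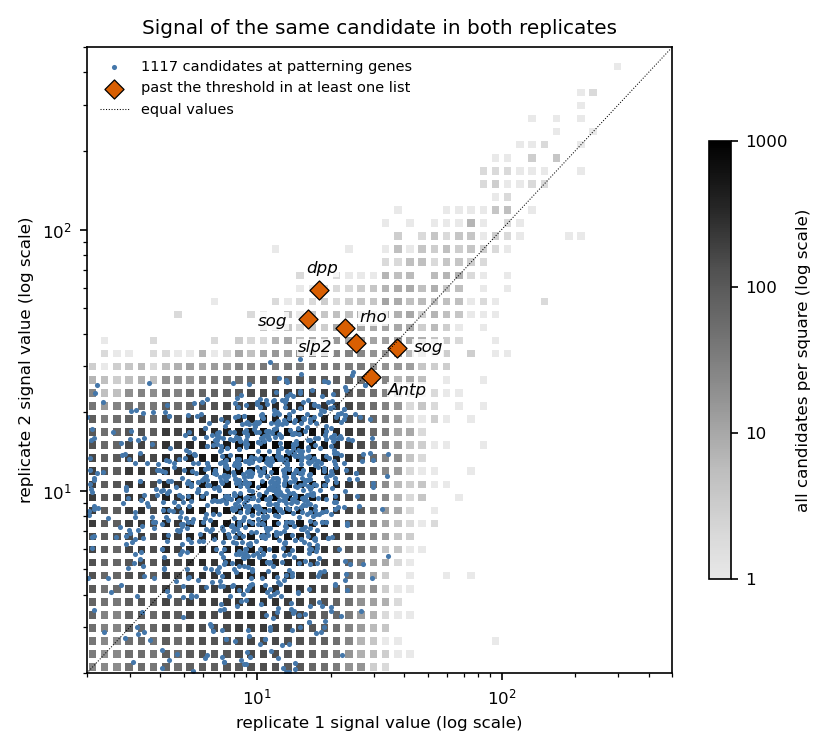
Signal value in replicate 1 (x) and replicate 2 (y) of the same candidate, both on log scales. Grey squares count all candidates on the main arms, blue points are the 1117 at patterning genes, and orange diamonds are the 6 member sites past the threshold in at least 1 list. The diamonds of dpp, rho, slp2 and 1 sog site lie above the line of equal values, and the other sog site and Antp lie close to it.

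The words at the members' promoter candidates are given beside those at the promoter candidates of all genes, as shares that were not tested. GAGAGAG stood within 100 bp of the summit at 14.1% of the 78 member promoter candidates, against 3.44% of the 16672 of all genes. Counted by gene, 9 of the 32 members with a promoter candidate had it (28.1%, against 5.38% of 10521 genes): Dfd and lab of the Hox genes, hb and hkb, eve, en and ptc, and sna and sog. CAGGTAG, the word read by Zelda, an activator of the early embryonic genome, was at 4 members (Scr, hb, sna and zen), 12.5% against 2.81% of genes, and at 5.13% of the candidates against 1.64%. CAGTGTA was at 5 (Abd-B, Antp, dpp, en and hb), 15.6% against 3.24% of genes, and at 6.41% of the candidates against 1.85%. The word ACAGTGG, the replication-related element and core promoter motif 1 were at none of the 32, against 5.66%, 3.34% and 2.81% of genes. The Bicoid core and the E-box were at 7 members each, 21.9% against 12.1% and 19.5% of genes. Per candidate the Bicoid core was at 8.97% against 7.11%, and the E-box at 10.3% against 11.9%, the opposite order. Members had 78 distinct promoter candidates at 32 genes and all genes had 16672 at 10521, where a candidate shared by neighbouring genes counts once. A share by gene can rise with the number of candidates per gene, which was not matched. At distal candidates, 991 of members and 100271 of all genes, the Trl word was lower in members, 2.02% against 2.39%. So were the word listed for Abd-B, Antp, dpp, en and hb (1.61% against 1.73%) and the E-box (6.66% against 10.4%). Higher were the Zelda word (1.51% against 1.27%), Bicoid core (7.97% against 6.27%) and replication-related element (0.404% against 0.242%). Core promoter motif 1 (0.605% against 0.325%) and the remaining word (3.13% against 2.88%) were higher too. These shares describe the genome under candidates, and CAGTGTA was added, with core promoter motif 1, after the sequences had been seen.

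The 11 promoter candidates of members that held GAGAGAG had signal values of 3.68 to 34.2, and none passed an IDR of 0.05. Below are the 1 with the highest signal, at hb, and the 2 with the most words outside the second chromosome's right arm, at sog and sna, which show how densely the repeats can stand. The hb candidate, chr3R:8697217-8697500, lay 463 bp downstream of a start (34.2, with 17.3 in replicate 1 and 14.9 in replicate 2) and holds GAGAGAG 2 times and CAGTGTA once. At sog the candidate chrX:15633377-15633660, at −85 bp from the start, holds 9 copies, all but 1 of them overlapping, and had 15.8 (14.2 and 3.46). That of sna, chr2L:15478318-15478601, at −200 bp, holds 9 copies and 1 CAGGTAG and had 3.68 (22.9 and 5.39). Its replicate 1 value is identical to that of the strongest sna promoter candidate, at 251 bp, and may come from the same replicate 1 peak. Capitals mark the same words on the plus strand of the Release 6 reference, where GAGAGAG can read CTCTCTC.
hb promoter candidate: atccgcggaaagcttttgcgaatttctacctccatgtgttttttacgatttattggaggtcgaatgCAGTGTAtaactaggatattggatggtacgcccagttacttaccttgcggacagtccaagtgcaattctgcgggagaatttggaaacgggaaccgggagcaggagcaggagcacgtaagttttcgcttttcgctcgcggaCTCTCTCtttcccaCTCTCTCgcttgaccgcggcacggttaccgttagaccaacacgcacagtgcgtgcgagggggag
sog promoter candidate: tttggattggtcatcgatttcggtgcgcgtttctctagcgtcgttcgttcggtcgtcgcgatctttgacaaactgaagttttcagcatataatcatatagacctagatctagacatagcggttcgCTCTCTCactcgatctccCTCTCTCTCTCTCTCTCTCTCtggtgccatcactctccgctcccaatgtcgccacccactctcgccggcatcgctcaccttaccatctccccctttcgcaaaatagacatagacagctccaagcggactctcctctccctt
sna promoter candidate: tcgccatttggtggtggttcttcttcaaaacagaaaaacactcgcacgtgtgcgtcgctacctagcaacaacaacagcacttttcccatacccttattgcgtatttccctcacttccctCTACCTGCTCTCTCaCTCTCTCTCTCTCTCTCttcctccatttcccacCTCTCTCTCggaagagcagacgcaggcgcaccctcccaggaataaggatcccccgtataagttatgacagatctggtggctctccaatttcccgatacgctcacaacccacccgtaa

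Other genes of the same pathways had thresholded peaks at shares near those of all protein-coding genes. Of 62 further patterning genes, 9 had a conservative peak in the gene or within 5 kb (14.5%, beside 11.0% of all genes) and 10 a pooled one (16.1%, beside 14.4%). The conservative 9 were Mad and Med, which carry the Dpp signal to the nucleus, cact, the inhibitor of Dorsal, shn, a zinc finger protein of the Dpp pathway, ths, an FGF ligand, fz, a Wnt receptor, hth, a partner of Hox proteins, exu, needed to localise bcd mRNA, and cad, a posterior homeobox gene. The pooled list named ftz-f1, sax and ush in addition and left out fz and shn. Only cact had a promoter peak, at −147 bp from its start with a signal of 71.9, in the conservative, pooled and replicate 2 lists. The peak counted for cad lay at the start of another gene, 16549 bp from the nearest start of cad. The highest signals were 208.2 at Med, at the start of another gene, 156.0 at exu, 101.0 at ths and 86.2 at Mad, at −605 bp. All 4 exceeded the 74.6 that was the highest of the 36 members, and a difference between the lists of genes was not tested.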

How the data were processed

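ChIP-seq of CkIIalpha-i1-eGFP was analysed in 2 biological replicates of 1 group, grouped by the replicate number in the labels. The authors deposited 8 peak lists, 4 ranked and 4 thresholded, with coordinates on dm6 per the file headers and deposited records. Their records name alignments and control reads as the sources. Which aligner and which caller made them is not given in the sources used here. The deposited signal value is the peak caller's score per peak, on a scale not stated. The values of the 2 input peaks are such caller scores too. The deposited score column is a scaled form of the global IDR, with a cap of 1000, and a column of the ranked lists is the −log10 global IDR as deposited. The ranked list behind the conservative list was identified by its inputs, of which 69.1% and 69.0% were identical to peaks of replicates 1 and 2. Values of that list are used unless stated otherwise. Depth is unknown, and the sources used here do not give the depth of each library.

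Windows, start sites and features came from Ensembl BDGP6.54 (release 115), without transposable elements, and sequence came from the RefSeq copy of Release 6, whose arms contained every peak. Percentiles rank a candidate among all promoter or all distal candidates of protein-coding genes, or among all candidates for single sites. Words were searched in both orientations, over the whole peak for printed sequences and up to 100 bp either side of a summit for shares. Counts and medians were set beside those of all protein-coding genes with no test, since there was 1 group and a chosen list. Exact intervals are Clopper-Pearson at 95%, and a count of 0 allows 3 counts. The search of windows was tested on simulated peaks. Members and lists were chosen with earlier results of these data known. Genes were named if they had a thresholded peak in any list, a candidate past an IDR of 0.05, 1 of the 3 highest promoter or distal values of their class, or no promoter candidate. Genes named for density, gaps or words were chosen after their values were seen. Other patterning genes were named for a conservative or pooled peak. Alternatives were windows of 0, 2 and 10 kb, promoter limits of 200 and 1000 bp, the pooled list, each replicate alone, and IDR limits of 0.001 and 0.05. The software was Python 3.11.15 with pandas 2.3.3, numpy 2.4.6, matplotlib 3.10.9 and scipy 1.17.1.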

Additional observations from a re-analysis of the deposited data

How the results depend on the processing

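The number of members with a promoter peak was 0 under every alternative run. These were promoter limits of 200 and 1000 bp, the pooled list, each replicate alone, and IDR limits of 0.001 and 0.05. Each alternative changed 1 setting, so the limit of 1000 bp was run in the conservative list only. The limits of 200 bp and 0.001 could not raise a count of 0. The rho peak lay 786 bp from its start in the pooled list and 788 bp in replicate 2. A limit of 1000 bp would take it in, but was not run in those lists. The count of 0 there thus rests on the narrower limit. Members with a thresholded peak, 1 in the conservative list, became 2 with a window of 10 kb (dl added, through a distal peak with a signal of 110.4), 5 when pooled, 0 with an IDR limit of 0.001 and 8 with 0.05, and 1 to 3 when a replicate was left out, 3 without replicate 1. Distinct peaks, 1 in the conservative list, were 2 at 10 kb, 6 pooled, 0 at 0.001 and 11 at 0.05, and 1 to 4 when a replicate was left out, 4 without replicate 1. Candidates per 10 kb, 12.01 as reported, were 12.5 within 2 kb, 11.7 within 10 kb, 13.3 in the gene body, 12.5 in the pooled list, and 9.72 to 10.03 when a replicate was left out. The median percentile of promoter candidates, 45.9, was 39.6 with a limit of 200 bp and 48.1 to 53.7 when a replicate was left out. That of distal candidates, 52.5, was 53.3 within 2 kb, 51.9 within 10 kb, 53.5 with a promoter limit of 1000 bp, and 50.8 to 51.3 when a replicate was left out. The cause of these shifts was not tested. Leaving out a replicate means reading the other replicate's own lists.

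With 36 genes, 0 or 1 with a peak leaves wide intervals, and 2 replicates of 1 group give no error for a single site beyond its 2 values. The signal scale is not stated and depth is unknown. The list of patterning genes was chosen by hand. No paired analysis was possible because there was only 1 group.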
